A study of Rattus norvegicus with 232 samples.

Results

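The comparison set the brain of the spontaneously hypertensive rat, strain SHR/OlaIpcv, against that of WKY/NCrl, a Wistar Kyoto strain. Members were chosen by the strain label alone: every library of either strain in the table of RefSeq genes was used, which made 21 of the 232 samples of the series. The 18 SHR/OlaIpcv libraries came from 2 animals, with 12 libraries of animal 1 and 6 of animal 4. The 3 WKY/NCrl libraries came from 3 animals. All were untreated males, and whole brain was sequenced as total RNA after removal of ribosomal RNA. Libraries of one animal were averaged, so n was 2 SHR/OlaIpcv and 3 WKY/NCrl animals, and 20859 genes were compared.

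SHR was bred from Wistar Kyoto stock for high blood pressure, and WKY, from the same stock, is its usual control with normal pressure. The strains differ at many loci, and which of them bear on pressure was not tested. One is the major histocompatibility complex (MHC, called RT1 in the rat), whose products present peptides to T cells. Brain circuits act on pressure through sympathetic outflow, vasopressin and a local renin-angiotensin system, and genes of these systems were listed for counting. The SHR/OlaIpcv tissue came from a colony at a research institute and was shipped in liquid nitrogen, whereas WKY/NCrl was among the classic inbred strains obtained from vendors. Strain, colony and tissue handling therefore cannot be told apart by these 2 strains alone, and blood pressure was not measured in these data.

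WKY/NCrl animals 1 and 2 were sequenced in batch 10 and animal 3 in batch 11 by the batch label, although the titles place animals 1 and 2 in batch 8. SHR/OlaIpcv animal 1 had 1 library in each of batches 10 and 11, which gave a comparison within those batches. That comparison rests on 1 SHR/OlaIpcv animal, assumed to vary like the animals of the other strains, and by the titles only batch 11 is shared. Values are on the log2 scale as deposited, so a difference of 1 is a doubling on that scale. How they were normalized is not given and the sequencing depth behind them is unknown, so folds here need not be folds of RNA. The single transcript of Ifit1 differed by 5.26, beside 2.68 for its gene, and that of Cbr1 by 1.79, beside 1.06. The medians of the 5 animals lay between 8.31 and 8.36. The median gene had a standard deviation between libraries of 0.11 within SHR/OlaIpcv animal 1 and 0.0819 between the WKY/NCrl animals. RNA levels in whole brain depend on both the number of cells of a type and the RNA in each, and these cannot be told apart.

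Of the 20859 genes, 170 differed between the strains at a false discovery rate (FDR) of 5% (limma, with Benjamini-Hochberg adjustment over all genes), which is 0.815% of those tested. In SHR/OlaIpcv 69 were higher, 0.331% of all genes, and 101 were lower, 0.484%. Their differences ran in size from 0.23 to 3.74, with a median of 0.76, and 41 exceeded 1. The groups of animals did not overlap for any of the 170, but they also did not overlap for 40.5% of all genes. A gene symbol other than a provisional identifier was attached to 100 of the 170, of which 42 were higher and 58 lower. The largest difference over all genes was that of the provisional locus LOC120097345, at 7.29 in SHR/OlaIpcv and 11.03 in WKY/NCrl.

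With so few animals, single animals decided many calls. The count was 36 without SHR/OlaIpcv animal 4, 65 without animal 1, and 92 to 121 without 1 WKY/NCrl animal. Among the genes named here, Acsm3, Alox15, Cbr1, Havcr2, Ifi44l, Ifit1, LOC120097345, RT1-N2, Rtel1 and Setd4 passed 5% FDR whichever animal was left out. The other called genes named here missed it without at least 1 of the animals. With batch as a covariate 56 genes passed, 0.268% of all, and within batches 10 and 11, 283 passed, 1.36% of all.

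**Figure D1:**
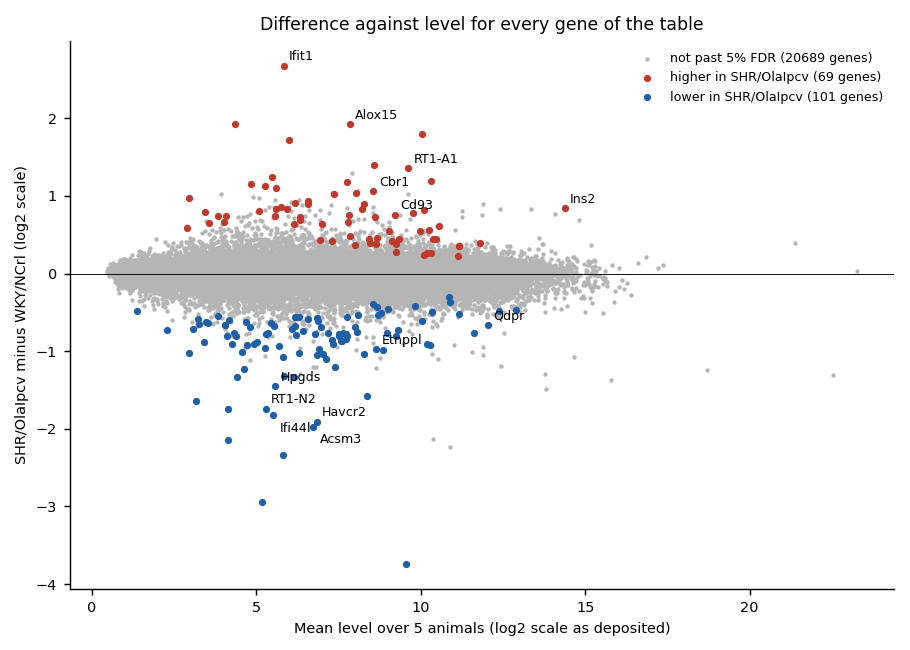
Difference between the strains (SHR/OlaIpcv minus WKY/NCrl, log2 scale) against the mean level over the 5 animals for 20859 genes, each point being 1 gene. The 69 red points and 101 blue points passed 5% FDR, and 55 of these 170 lie above the median level of 8.35.

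All 18 SHR/OlaIpcv libraries lay outside the range of the WKY/NCrl animals, on one side, for 145 of the 170 genes (85.3%, beside 3.57% of all genes). The 170 were chosen for a difference in these same libraries, which come from 2 animals, so nothing is read from this share. Havcr2, Ifit1, Alox15, Hpgds, Ifi44l and Mx1, all below the table's median level of 8.35, and Ifnar1, above it, were chosen after their values were seen. Havcr2, at chr10:31561895-31588943 on the plus strand of rn6, encodes TIM-3, an inhibitory receptor of T cells and myeloid cells. It read 5.67 and 5.70 in the SHR/OlaIpcv animals and 7.41, 7.64 and 7.72 in the WKY/NCrl animals. All 18 SHR/OlaIpcv libraries, from 5.09 to 6.34, lay below the lowest WKY/NCrl animal. Havcr2 was 3.75-fold lower in SHR/OlaIpcv (difference -1.91, SE 0.14, limma adjusted p = 5.63e-22), and the difference within batches 10 and 11 was -1.92 (limma adjusted p = 4.2e-15). Its transcript NM_001100762.1, in a table where 0.23% of transcripts passed 5% FDR, stood at 3.31 against 7.44 (difference -4.13, limma adjusted p = 5.29e-34), while its second transcript did not pass (difference -0.94, limma adjusted p = 1.0). Not every gene that passed had a transcript that passed. The single transcripts of Acsm3 (difference -3.08, SE 0.98, limma adjusted p = 0.36) and RT1-N2 (-2.05, SE 1.12) and both of Hpgds (-2.89 and -3.08) had the direction of their gene but did not pass, and neither did any of the 6 of Rtel1, which ranged from -0.13 to 1.52.

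Ifit1 encodes an interferon-induced protein that binds foreign RNA. It read 7.70 and 7.18 in SHR/OlaIpcv against 4.57, 4.63 and 5.08 in WKY/NCrl. This was the largest rise among genes with a symbol, 6.4-fold (difference 2.68, SE 0.33, limma adjusted p = 1.51e-09). In batches 10 and 11 the 2 SHR/OlaIpcv libraries read 8.01 and 8.62, and the difference was 3.55.

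Alox15 encodes a lipoxygenase that oxidises polyunsaturated fatty acids such as arachidonic acid. It was at 8.97 and 9.03 in SHR/OlaIpcv and at 7.26, 7.03 and 6.94 in WKY/NCrl, with no overlap between animals or libraries. The level was 3.79-fold higher in SHR/OlaIpcv (difference 1.92, SE 0.35, limma adjusted p = 0.000169), and both matched transcripts passed 5% FDR, at differences of 2.62 and 3.96. Adding batch as a covariate left a difference of 1.87 with a limma adjusted p of 0.0711. The gene lies at chr10:56953691-56962161 on the minus strand of rn6.

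Hpgds, the haematopoietic prostaglandin D synthase, is another enzyme of arachidonic acid metabolism and went the other way. It read 4.89 and 4.50 against 6.27, 6.11 and 6.06 (difference -1.45, SE 0.25, limma adjusted p = 2.71e-05).

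Ifi44l and Mx1 are, like Ifit1, genes that interferon induces, and both were lower in SHR/OlaIpcv, as was Gbp6 (-0.78, limma adjusted p = 0.0387), a guanylate-binding protein gene also named after its value was seen. Ifi44l read 4.59 and 4.22 against 6.00, 6.49 and 6.197 (difference -1.83, SE 0.24, limma adjusted p = 2.15e-08). Mx1, which encodes an antiviral GTPase, read 6.85 and 6.73 against 7.47, 7.67 and 7.79 (difference -0.85, SE 0.21, limma adjusted p = 0.0215). Ifnar1, a chain of the receptor for type I interferon, was higher, at 12.004 and 12.07 against 11.66, 11.57 and 11.69 (difference 0.40, SE 0.07, limma adjusted p = 0.000271). The difference of Mx1 missed the threshold within batches 10 and 11 (-0.76), and that of Gbp6 was -0.59 there. With batch as a covariate both missed it, at -1.01 for Mx1 (limma adjusted p = 0.206) and -0.97 for Gbp6 (limma adjusted p = 0.166). Ifnar1 missed it there too, at 0.36 (limma adjusted p = 0.105). Of the Ifnar1 transcripts, NM_001105893.1 passed 5% FDR (0.51), while the others, at 0.61 and -0.55, did not.

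The bases before the starts of Ifi44l and Mx1, both induced by interferon, are shown as in RefSeq on GRCr8, a Brown Norway assembly, so they are the sequence of neither strain. Capitals mark matches to the core of the interferon-stimulated response element, spelled GAAANNGAAA and searched on both strands, where TTTCNNTTTC is its reverse complement. Each window is the 250 bases before the start, Ifi44l at chr2:243328473-243328722 on the plus strand and Mx1 at chr11:50294607-50294856 on the minus strand.
Ifi44l: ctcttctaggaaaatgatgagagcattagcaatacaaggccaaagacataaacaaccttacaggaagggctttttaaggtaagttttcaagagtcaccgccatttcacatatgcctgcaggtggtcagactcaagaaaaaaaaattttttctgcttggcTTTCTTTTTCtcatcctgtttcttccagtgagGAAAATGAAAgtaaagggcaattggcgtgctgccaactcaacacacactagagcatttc
Mx1: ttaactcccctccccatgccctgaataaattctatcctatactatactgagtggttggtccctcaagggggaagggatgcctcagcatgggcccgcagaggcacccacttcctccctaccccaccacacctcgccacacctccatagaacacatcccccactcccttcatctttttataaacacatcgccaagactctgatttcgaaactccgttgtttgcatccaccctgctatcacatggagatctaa
The Ifi44l window holds 2 matches and the Mx1 window 0. Of 27457 promoter windows of the same length, 902 (3.29%) hold at least 1.

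Among the genes studied as SHR candidates, 1 of 15 measured passed 5% FDR (6.67%, beside 0.815% of all genes). This was Acsm3, long known as the SA gene, which encodes a medium-chain acyl-CoA synthetase and was isolated for its different level in the kidney of hypertensive rats. It read 5.64 and 5.42 in SHR/OlaIpcv and 7.48, 7.69 and 7.34 in WKY/NCrl. All 18 SHR/OlaIpcv libraries lay below the WKY/NCrl animals, a 3.93-fold lower level (difference -1.97, SE 0.36, limma adjusted p = 0.000172). The gene lies at chr1:189514553-189541224 on rn6, on the plus strand. Within batches 10 and 11 its difference was -2.13 (limma adjusted p = 0.00462). Among the 73 strains WKY/NCrl ranked 2 for Acsm3, whereas SHR/OlaIpcv ranked 44, at 5.53 beside a panel median of 5.68.

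Ephx2 and Endog are the 2 candidates closest behind. Ephx2, the soluble epoxide hydrolase that breaks down vasodilator lipids, was at 8.79 and 8.66 against 7.61, 7.74 and 7.61. Its difference was 1.07 (SE 0.31, 95% interval 0.46 to 1.68, limma adjusted p = 0.0732) and passed the threshold within batches 10 and 11 (1.42, limma adjusted p = 0.0384). Endog, a mitochondrial endonuclease, had a difference of -0.77 (limma adjusted p = 0.0947), and of -1.10 within those batches (limma adjusted p = 0.0326). With batch as a covariate both missed it, at 0.87 for Ephx2 (limma adjusted p = 0.739) and -0.66 for Endog (limma adjusted p = 0.731). Cd36, the fatty acid transporter in which SHR carries a known defect, was at 3.67 against 3.93 and its difference of -0.25 (SE 0.30) did not pass.

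**Figure D2:**
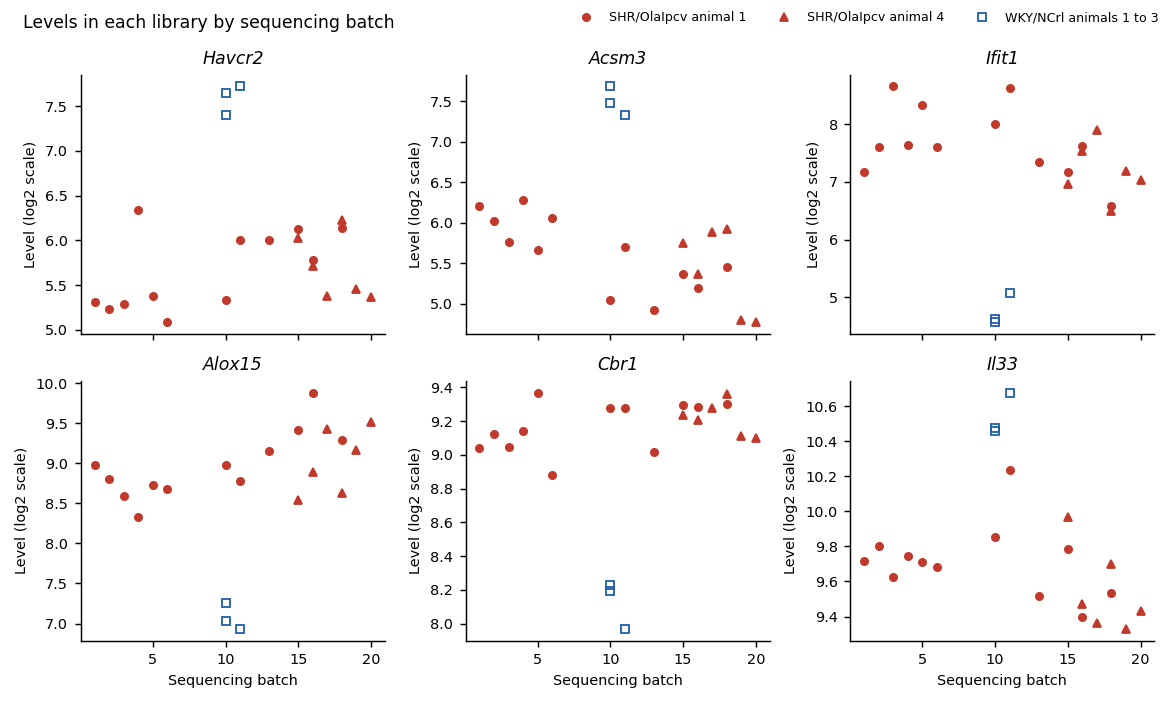
Level (log2 scale) of 6 genes in each library against its sequencing batch by the batch label, for SHR/OlaIpcv animals 1 (circles) and 4 (triangles) and the 3 WKY/NCrl animals (open squares). For all 6 genes the 18 SHR/OlaIpcv libraries lie on one side of the 3 WKY/NCrl animals.

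In the 8 lists of systems that govern pressure, 1 of 105 measured genes passed 5% FDR, which is 0.952% beside 0.815% of all genes. Over all 13 lists of genes, 10 of 212 measured members passed 5% FDR (4.72%, beside 0.815% of all genes), and 8 of the 10 belong to the MHC list. None passed among 14 genes of the renin-angiotensin system (limma, 1 at an unadjusted p under 0.05, as 8.45% of all genes were). Agt, the precursor of angiotensin, was at 12.26 in SHR/OlaIpcv and 12.43 in WKY/NCrl, with a difference of -0.17 (SE 0.24). Agtr1a, the main angiotensin receptor, was at 4.93 and 4.69. Lnpep, an aminopeptidase that binds angiotensin IV and had the highest level of the list, differed by -0.03 (SE 0.13).

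None passed among 7 natriuretic peptide genes, 9 adrenergic receptor genes, 10 dopamine receptor and signalling genes, 15 of vasopressin, oxytocin and the stress axis, 17 of nitric oxide and endothelin signalling, or 19 of sodium and potassium transport. Furin, Adra1a, Pde10a, Hsd11b1 and Ednrb had the highest levels of the first 5 lists. Their differences ranged from -0.30 for Hsd11b1, which regenerates active glucocorticoid, to 0.12 for Pde10a, the striatal phosphodiesterase. The list medians lay between -0.11 and 0.05, beside a median of -0.01 over all genes. Only 2 genes of these 6 lists reached an unadjusted p under 0.05 by limma, namely 1 of nitric oxide and endothelin signalling and 1 of ion transport. Over all genes 8.45% did.

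In the catecholamine list, 1 of 14 genes passed (7.14%, beside 0.815% of all genes). By limma 4 had an unadjusted p under 0.05, 3 higher and 1 lower, beside 8.45% of all genes. Qdpr encodes the reductase that regenerates tetrahydrobiopterin, the cofactor of tyrosine hydroxylase. It read 11.77 and 11.51 against 12.20, 12.31 and 12.39 (difference -0.66, SE 0.18, limma adjusted p = 0.0399), and it missed the threshold whichever animal was left out and also within batches 10 and 11 (-0.74, limma adjusted p = 0.0596). Th itself differed by -0.09 (SE 0.32). Slc6a2, the noradrenaline transporter, and Dbh, which makes noradrenaline, had differences of 0.95 (SE 0.35, limma adjusted p = 0.295) and 0.72 (SE 0.36, limma adjusted p = 0.576). Both are genes of small hindbrain nuclei, and of the 11 hindbrain markers outside the catecholamine list 10 had a difference above 0, with a median of 0.14 and none past 5% FDR. Whether the amount of hindbrain tissue plays a part was not tested.

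The immediate early genes, which neurons switch on within minutes of activity, had 0 of 18 members past 5% FDR, although 15 had a difference above 0 and the median was 0.27. The median was 0.57 with batch as a covariate. Of the 18, 4 had an unadjusted p under 0.05 by limma, beside 8.45% of all genes, all higher, the highest being Npas4 at 9.01 against 8.23 (limma adjusted p = 0.404). None of 20 clock genes passed, and none was under 0.05 unadjusted by limma. Tef, the clock output factor with the highest level, differed by 0.06 (SE 0.08). Of 20 glutathione S-transferase genes, which conjugate toxic compounds, 0 passed by limma, but 18 had a difference below 0, the median was -0.24, and 9 had an unadjusted p under 0.05 (8 lower and 1 higher), beside 8.45% of all genes. Gstm1, the highest of them, was at 12.08 against 12.29 (difference -0.21, SE 0.12).

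The MHC and antigen presentation genes differed most often. Of 35 measured, 8 passed 5% FDR (22.9%, beside 0.815% of all genes), 1 higher and 7 lower in SHR/OlaIpcv, and 29 had a difference below 0. The list median was -0.39. RT1-A1, a classical class I gene, was the one that rose, at 10.10 and 10.75 against 8.90, 8.90 and 9.40 (difference 1.36, SE 0.29, limma adjusted p = 0.0031), although without SHR/OlaIpcv animal 4 it was 1.03 (limma adjusted p = 0.712). RT1-A2, its class I neighbour, fell, at 8.29 and 8.21 against 8.89, 9.44 and 9.37 (difference -0.98, SE 0.22, limma adjusted p = 0.00439). RT1-A3, outside the list and named after its values were seen, differed by -1.11 (limma adjusted p = 0.00604). Its difference was -0.69 with batch as a covariate (limma adjusted p = 0.733), which missed the threshold, and -1.88 within batches 10 and 11.

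The other class I genes that fell were RT1-N2 (-1.74), RT1-CE15 (-1.33), RT1-T24-4 (-0.75) and RT1-CE5 (-0.73). RT1-N2 read 4.11 and 4.36 against 5.77, 6.03 and 6.13 (SE 0.27, limma adjusted p = 2.04e-06), with no overlap between libraries. Class II was represented by RT1-Bb, a chain of the peptide-binding dimer, at 4.98 and 5.35 against 6.28, 6.42 and 6.05 (difference -1.08, SE 0.22, limma adjusted p = 0.00129). RT1-DMa, which helps load peptides onto class II, was at 7.58 and 7.69 against 8.73, 8.82 and 8.47 (difference -1.04, SE 0.25, limma adjusted p = 0.0157).

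None of the listed genes of this pathway other than RT1 genes passed. B2m, the invariant light chain of class I, was at 12.90 in SHR/OlaIpcv and 13.31 in WKY/NCrl (difference -0.41, SE 0.15, limma adjusted p = 0.3). Cd74, the invariant chain of class II, differed by -0.57 (SE 0.22, limma adjusted p = 0.318), and Tap1, a peptide transporter, by -0.57 (SE 0.18, limma adjusted p = 0.152). Tapbp and Tap2 differed by 0.09 and -0.11.

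RT1 class I genes are near-identical copies that vary between haplotypes, so that reads of one copy can be counted for another. Levels of single class I genes are therefore uncertain. For RT1-A1 the earlier Ensembl tables gave differences of 0.43 (limma adjusted p = 0.04999) in the first and -0.55 (limma adjusted p = 0.109) in the second, which is opposite in sign. The tables also differ in annotation, normalization and animals, and the assignment of reads was not tested. With batch as a covariate 2 of the 35 passed, RT1-A1 and RT1-N2, beside 0.268% of all genes, and the list median was -0.26. Within batches 10 and 11, 15 of the 35 passed, beside 1.36% of all genes, and the list median was -0.77, although RT1-A1 missed the threshold there (1.23, limma adjusted p = 0.0583).

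**Figure D3:**
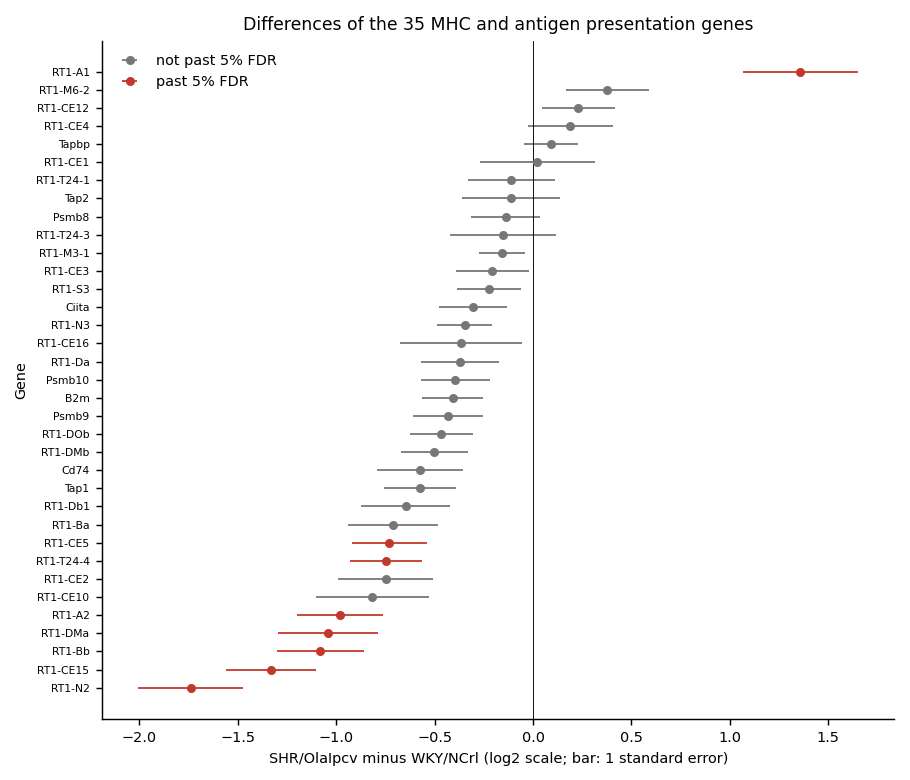
Difference between the strains (log2 scale) for the 35 measured genes of the MHC and antigen presentation list, with 1 standard error of the fit. The 8 red points passed 5% FDR, and RT1-A1 alone among them lies above 0.

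By the fixed rule, the 12 largest differences in each direction were taken among genes with a symbol, above the median level, past 5% FDR and without overlap between animals. Of the 45 genes that met those conditions, the leading ones among the lower were RT1-A2, Etnppl, Mpeg1, Il33, Sergef and Mt2A. Etnppl, an astrocyte enzyme that breaks down phosphoethanolamine, read 8.08 and 8.01 against 8.84, 9.06 and 9.18 (difference -0.98, SE 0.22, limma adjusted p = 0.00413). Mpeg1, a pore-forming protein of macrophages and microglia, read 9.64 and 9.82 against 10.67, 10.82 and 10.47 (difference -0.92, SE 0.18, limma adjusted p = 0.000688). All 18 SHR/OlaIpcv libraries of both genes lay below the WKY/NCrl animals.

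Il33, an alarm cytokine that glia hold in the nucleus, read 9.72 and 9.54 against 10.46, 10.47 and 10.68 (difference -0.90, SE 0.19, limma adjusted p = 0.0017). WKY/NCrl had the highest Il33 of the 73 strains in the table and SHR/OlaIpcv ranked 71 of 73. Within batches 10 and 11 the difference shrank to -0.49, since SHR/OlaIpcv animal 1 read 9.85 and 10.24 there. With batch as a covariate the difference grew to -1.20 (limma adjusted p = 0.00787). The metallothionein gene Mt2A, whose product binds zinc and copper, read 8.47 and 8.58 against 9.32, 9.26 and 9.28 (difference -0.76, SE 0.16, limma adjusted p = 0.00169), and SHR/OlaIpcv was the lowest of 73 strains. Sergef, a guanine exchange factor-like gene, was at 11.30 and 11.04 against 11.96, 12.03 and 11.82 (difference -0.77, SE 0.20, limma adjusted p = 0.0256), again the lowest of 73 strains. The low Sergef level was not particular to SHR/OlaIpcv, since strain BN-Lx/Cub had a mean of 11.25 beside its 11.17.

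Crot, which moves fatty acyl groups onto carnitine in peroxisomes, differed by -0.61, and Retsat, which saturates retinol, by -0.52. Crot differed more in one of its transcripts: XM_039108458.1 was at 1.57 against 6.90 (difference -5.32, SE 0.86, limma adjusted p = 1.87e-05), while NM_031987.2, at 8.36 against 9.32, did not pass (difference -0.95, SE 0.68). RT1-CE5, Qdpr, Pld5 (-0.54) and the non-coding Lnc215 (-0.51) complete the lower set. With batch as a covariate, only RT1-A1, Cbr1, Rtel1, Cd93, Cd4, Il33 and Crot of the 24 genes in both directions passed 5% FDR. Of the 24 genes, 11 missed the threshold within batches 10 and 11, namely RT1-A1, Ybx3, Kdr, Creg1, Cd4, Mpzl1, Etnppl, Il33, Qdpr, Crot (-0.46, limma adjusted p = 0.117) and Pld5 (-0.28, limma adjusted p = 0.322).

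Cbr1 led the higher set after RT1-A1. It encodes a carbonyl reductase that acts on prostaglandins and drugs. Its levels were 9.17 and 9.21 in SHR/OlaIpcv and 8.23, 8.19 and 7.97 in WKY/NCrl (difference 1.06, SE 0.14, limma adjusted p = 2.15e-08). WKY/NCrl was the lowest of the 73 strains for Cbr1, with a strain mean of 8.13 beside a median of 9.35, whereas SHR/OlaIpcv ranked 47. Its neighbours Setd4, a methyltransferase gene, and Cbr3, a related reductase, are named here after their values were seen. Setd4 read 8.82 and 8.79 against 8.03, 7.93 and 7.77 (difference 0.90, SE 0.15, limma adjusted p = 1.09e-05), and all 3 of its transcripts passed 5% FDR. Cbr3 read 6.55 and 6.52 against 5.92, 5.93 and 5.84 (difference 0.64, SE 0.16, limma adjusted p = 0.0155). WKY/NCrl was also the lowest of 73 strains for both. On rn6, Setd4 lies at chr11:33781870-33801999 on the minus strand and Cbr1 at chr11:33812989-33815418 on the plus strand.

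Rtel1, a helicase that unwinds telomeric and other DNA structures, read 10.23 and 10.20 against 9.42, 9.48 and 9.43 (difference 0.77, SE 0.13, limma adjusted p = 2.04e-05). Cd93, a surface glycoprotein of endothelium and myeloid cells, read 9.54 and 9.80 against 8.86, 8.83 and 9.05 (difference 0.76, SE 0.14, limma adjusted p = 0.000271). Kdr, the endothelial receptor for VEGF, was at 10.19 and 10.43 against 9.83, 9.77 and 9.67 (difference 0.55, SE 0.15, limma adjusted p = 0.0398). SHR/OlaIpcv was the highest of the 73 strains for both Cd93 and Kdr. Within batches 10 and 11 the limma adjusted p was 0.00944 for Cd93 and 0.119 for Kdr. Without SHR/OlaIpcv animal 4 both missed the threshold, at 0.227 and 1.0 by limma. None of 8 endothelial markers passed 5% FDR (median 0.00, with 2 at an unadjusted p under 0.05 by limma, beside 8.45% of all genes).

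Cd4, which in the rat marks macrophages as well as helper T cells, differed by 0.46 (SE 0.11, limma adjusted p = 0.00779). The difference was 0.17 within batches 10 and 11, but 0.64 (limma adjusted p = 0.0123) with batch as a covariate. Ins2, an insulin gene, stood at 14.77 and 14.99 against 13.94, 13.89 and 14.28 (difference 0.84, SE 0.20, limma adjusted p = 0.0112). Such a level is far above the table's median for a hormone made in the pancreas, and no transcript of Ins2 was matched in the transcript table. What those reads are was not tested. Adpgk, an ADP-dependent glucokinase, differed by 0.61, the cold-shock protein gene Ybx3 by 0.56, Creg1 by 0.54, the stress kinase gene Map3k5 by 0.45 and Mpzl1 by 0.44. For Adpgk, Creg1 and Map3k5, WKY/NCrl was the lowest of the 73 strains.

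**Figure D4:**
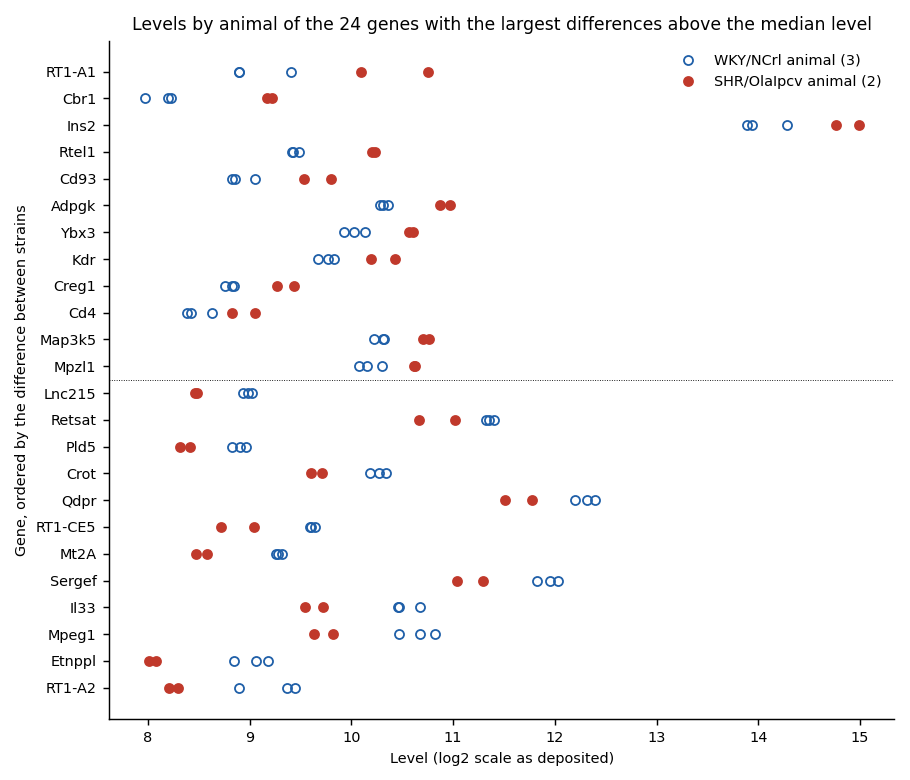
Levels (log2 scale) in the 2 SHR/OlaIpcv animals (filled) and the 3 WKY/NCrl animals (open) for the 24 genes named by the rule, ordered by difference, with the 12 lower in SHR/OlaIpcv below the dotted line. The strains do not overlap for any gene, which the rule required.

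Cell type markers were measured beside these genes. Of 10 microglial markers 0 passed 5% FDR by limma, but 9 had a difference below 0 and 7 had an unadjusted p under 0.05, beside 8.45% of all genes. Their median was -0.41, with Aif1 at -0.55 (limma adjusted p = 0.0947), C1qc at -0.54 and Tmem119 at -0.49. Their summed level was 13.36 and 13.49 in SHR/OlaIpcv and 13.59 to 13.67 in WKY/NCrl on the log2 scale, and no marker was near 0. Within batches 10 and 11 the median was -0.70 and 5 of 10 passed, beside 1.36% of all genes, whereas with batch as a covariate it was -0.20 and 0 passed by limma. Called genes that microglia or other myeloid cells also express went both ways. Havcr2, Mpeg1, Ctss (-0.48), Cd300a (-0.67), P2ry6 (-0.67), Fcgr2b (-0.68) and the class II genes were lower, and Lilrb3l (0.93), Cd93 (0.76), Lair1 (0.69) and Cd4 (0.46) were higher. Ctss, Cd300a, P2ry6, Fcgr2b, Lilrb3l and Lair1 were named after their values were seen. The part of myeloid cell number in these differences was not tested.

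Of 9 blood markers, 8 had a difference above 0, with a median of 0.77, and 7 of these had an unadjusted p under 0.05, beside 8.45% of all genes. Hbb, the main beta globin, was at 15.21 against 14.52 (limma adjusted p = 0.459). Their summed level was 16.32 and 16.35 in SHR/OlaIpcv and 15.40 to 15.75 in WKY/NCrl. The one blood marker past 5% FDR (11.1% of the 9, beside 0.815% of all genes) was Hba-a3, an alpha globin copy, which was lower, at 6.75 and 6.57 against 7.82, 8.13 and 7.63 (limma adjusted p = 0.0298). Kel, a red cell antigen gene, was among the genes higher in SHR/OlaIpcv (0.86). Whether residual blood in the tissue plays a part was not tested. Within batches 10 and 11 the median of the blood markers was 0.31. The markers of neurons had a median of 0.01, those of astrocytes -0.16 and those of oligodendrocytes 0.12, with none past 5% FDR in these 3 lists. Regional markers had medians of 0.39 for cerebellum, 0.27 for olfactory bulb, 0.06 for striatum and -0.21 for hypothalamus, none past 5% FDR. In batches 10 and 11 alone these medians were 0.98, -0.26, 0.04 and -0.36, so that of the olfactory bulb turned sign, and choroid plexus and meningeal markers had medians of -0.46 and -0.56.

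Many called genes lay beside another. Of the 170, 29.5% of those placed on GRCr8 had another called gene within 1 Mb, beside 13.5% of all tested genes placed there. The largest runs were in the RT1 region of chromosome 20, with 5 genes from RT1-Bb to RT1-A1 and 4 from RT1-N2 to RT1-CE5. Setd4, Cbr1 and Cbr3 on chromosome 11 all were higher. Txnip, Nudt17 and Polr3c on chromosome 2 were mixed, with 2 lower and 1 higher, and Mpzl1 and Creg1 on chromosome 13 were both higher.

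Related strains of the panel set these differences in context, and their values are given as a description. SHRSP/A3NCrl, the stroke-prone line derived from SHR, had 2 animals in the table. By the study's methods it was, like WKY/NCrl, among the classic inbred strains obtained from vendors. Over the 170 genes its mean was nearer to SHR/OlaIpcv for 126 and nearer to WKY/NCrl for 44, that is 74.1% nearer to SHR/OlaIpcv beside 57.9% of all genes. The 170 were chosen for a difference between the 2 means that define nearness, so nothing is read from this share. Acsm3 was at 5.51 and 6.23 in SHRSP/A3NCrl and RT1-N2 at 4.25 and 4.72, both near the SHR/OlaIpcv values. These values were also near the panel medians, of 5.68 for Acsm3 and 4.17 for RT1-N2. SHR/OlaIpcv ranked 44 and 32 of 73 strains for these genes, whereas WKY/NCrl ranked 2 and 3. The genes with the largest differences did not all follow. Havcr2 was at 7.35 and 7.62 in SHRSP/A3NCrl, Alox15 at 7.21 and 7.14, and Ifit1 at 4.51 and 5.00, all 3 at the level of WKY/NCrl.

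The HXB/BXH recombinant inbred strains were bred from a cross of SHR/OlaIpcv with BN-Lx/Cub, and each carries a mix of both genomes. By the study's methods, these strains and BN-Lx/Cub were kept at the same institute as SHR/OlaIpcv. Over the 89 called genes whose parental means differed by more than 0.5, a median of 13 of 30 recombinant inbred strains lay nearer to SHR/OlaIpcv. No such median was taken over all genes, and the called genes were chosen in part by their SHR/OlaIpcv level. Nothing is therefore read from it. Ifit1 was at 4.73 in BN-Lx/Cub, and 14 of the 30 strains lay nearer to SHR/OlaIpcv, over a range of 3.79 to 7.66. Ifi44l was at 6.22 in BN-Lx/Cub and 17 of 30 were nearer to SHR/OlaIpcv. For Alox15 the number was 6 of 30.

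For 2 of the 89 genes it was 0, Havcr2 and Cd93. Havcr2 was at 7.62 in BN-Lx/Cub and between 7.18 and 7.59 in all 30 recombinant inbred strains, so the low level of SHR/OlaIpcv, the lowest of 73 strains, was seen in none of these 30 strains. Cd93 was at 9.15 in BN-Lx/Cub and between 8.95 and 9.39 in the 30 strains, whereas SHR/OlaIpcv stood at 9.67. SHR/OlaIpcv was the highest or lowest of the 73 strains for 41 of the 170 genes, beside 2.03% of all genes, and WKY/NCrl for 34, beside 1.11%. The 170 were chosen for a difference between these strains, so nothing is read from these counts.

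**Figure D5:**
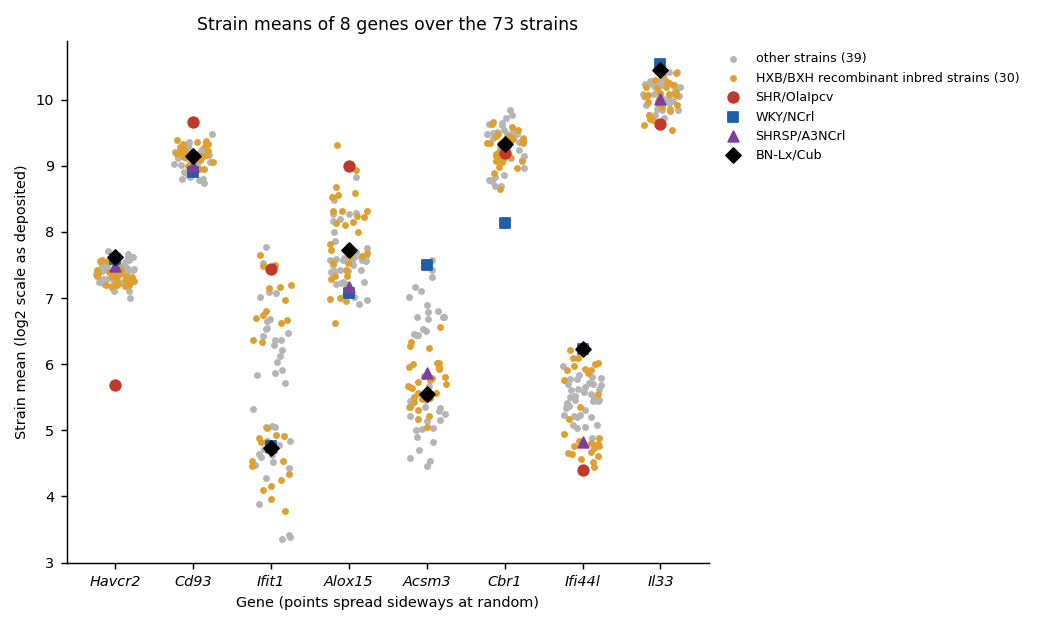
Strain means (log2 scale) of 8 genes in the 73 strains, with SHR/OlaIpcv, WKY/NCrl, SHRSP/A3NCrl and BN-Lx/Cub marked and the 30 recombinant inbred strains in orange. For Havcr2, SHR/OlaIpcv at 5.68 lies apart from all other strains, while for Ifit1 the strains spread from 3.36 to 7.78.

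An earlier table of the series, on Ensembl genes and with its own normalization, holds SHR/OlaIpcv animals 2 and 3, which the RefSeq table lacks. Its WKY/NCrl animals are the same 3, so the comparisons share their controls. Havcr2 read 5.92 and 5.96 in those 2 animals and 7.45, 7.75 and 7.68 in WKY/NCrl. Acsm3 read 5.57 and 5.64 against 7.50, 7.78 and 7.70, and Alox15 read 8.85 and 8.60 against 7.82, 7.66 and 7.62. For these 3 genes both animals lay on the same side as animals 1 and 4. The other Ensembl table also holds a library of animal 3. The labels list 2 libraries of that animal, and which of them the first table holds is not clear. In the second table Havcr2 and Acsm3 read 6.61 and 6.20, still below WKY/NCrl. Alox15 read 7.60 there, inside the WKY/NCrl range of 7.39 to 7.68, while animals 1 and 4 read 9.34 and 9.33. In that column Ybx3, Kdr and Brca2 also overlapped with WKY/NCrl. RT1-A1 lay on the opposite side there, at 8.69 against 9.26, 9.59 and 9.45, as did animals 1 and 4 in the second table, at 8.92 and 9.02.

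Cbr1 read 9.26 and 9.65 against 7.25, 7.24 and 7.45, and Setd4 read 8.35 and 8.27 against 6.92, 6.76 and 6.80. Rtel1 read 10.46 and 10.42 against 9.34, 9.40 and 9.40. These genes too kept apart from WKY/NCrl in both added animals. Not every called gene looked up had a match in the first table. Among those without one were Ifit1, LOC120097345, Cd93, Ins2, Mpeg1, Mt2A, RT1-A2 and Ifnar1, so animals 2 and 3 gave no check of them. Of the 40 called genes that were matched, 5 overlapped with WKY/NCrl, whereas 47.5% of all genes there did not overlap. The 5 were Kdr, Cd4, RT1-DMa, Mpzl1 and Brca2. Kdr was at 10.15 and 10.51 against 10.45, 10.44 and 10.17, and Cd4 at 7.99 and 8.47 against 8.12, 8.24 and 7.95. RT1-DMa was at 5.78 and 5.70 against 6.63, 6.43 and 5.47, and Mpzl1 at 10.39 and 10.63 against 10.57, 10.45 and 10.13. Il33 was at 9.79 and 9.81 against 10.41, 10.51 and 10.55, and Ephx2 at 8.42 and 8.98 against 7.23, 7.41 and 7.16, again without overlap, and both are given here after their values were seen. Hpgds kept its direction with a smaller gap, at 3.71 and 3.65 against 3.88, 4.10 and 4.06. That table has 25.3% of its genes called between these 2 animals and WKY/NCrl, so a call there is a weak criterion.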

How the data were processed

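Total RNA of whole brain was depleted of ribosomal RNA and sequenced as stranded libraries. The submitters' processing notes name cutadapt, Bowtie2, HISAT2, StringTie, RSEM and DESeq2, without an order for the RefSeq table. The values deposited by the authors are on the log2 scale, and how the RefSeq table was normalized is not given in the sources used here. The earliest Ensembl table holds the authors' regularized log2 values after removal of unwanted variation, so no depth or counting interval can be given. The transcript coordinates deposited by the authors on rn6 gave gene positions from reference transcripts.

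Libraries of one animal were averaged, and 73 spike-in features were left out. With strain as the factor, limma 3.58.1 (R 4.3.3) was fitted to the values of 194 animals of 73 strains. The strains share one estimate of the spread per gene. SHR/OlaIpcv was then contrasted with WKY/NCrl. P-values were adjusted over all 20859 genes. No source says whether the animals of a strain shared a litter or cage. The p-values measure the spread between animals of a strain, pooled over the 73 strains. An animal averaged over many libraries was weighted like an animal with a single library. Tested on simulated data for this comparison of 20859 genes, the fit recovered 45 of 100 genes changed by 0.5 and 97 of 100 changed by 1, with 10 false calls. The design foresaw more animals than the 2 SHR/OlaIpcv and 3 WKY/NCrl animals that the table holds, and those 5 were used in the rule for named genes.

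The named genes were the 12 largest differences in each direction among genes with a symbol, past 5% FDR, with a mean above the table's median and no overlap between animals. Added were every listed gene past 5% FDR and, for lists without one, the member with the highest level. Some genes under this rule are not reported here. Members and lists were chosen with earlier results of these data known. Of the listed mitochondrially encoded transcripts, 0 of 26 were measured. Among the marker lists, 6 of 10 pituitary and pineal, 8 choroid plexus and 8 meningeal markers were measured, with none past 5% FDR and medians of 0.09, -0.05 and -0.16. Columns of another strain that matched no sample (3 in each of the RefSeq and v6 tables, 0 in v5) were not used. The alternatives were fits on both strains alone, batch as a covariate, libraries of batches 10 and 11, median centring, a level filter, a trended robust prior, without batches 18 to 20, without each animal, and the earlier tables. Figures were drawn with matplotlib 3.10.9.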

Additional observations from a re-analysis of the deposited data

How the results depend on the processing

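The count of 170 called genes (10 of 212 listed genes) rested on the animals and the fit. It was 153 after median centring, 171 with a trended robust prior, 185 without batches 18 to 20 and 177 in the v6 Ensembl table, where 6 listed genes passed. It was 306 (18 listed) with both strains alone, 283 (18 listed) within batches 10 and 11, 56 (3 listed) with batch as a covariate and 52 (4 listed) above the median level, where fewer genes were tested. Of the 170 genes, 117, 95, 54 and 52 were called again in these 4 fits. In the v5 Ensembl table it was 4504 (53 listed), and 4630 (49 listed) with SHR/OlaIpcv animals 2 and 3, an alternative chosen after seeing the data. Leaving out 1 animal gave 36 to 121 genes and 3 to 7 listed genes. The count was 36 without SHR/OlaIpcv animal 4, 65 without animal 1, and 92 without WKY/NCrl animal 2, and a lone SHR/OlaIpcv animal was assumed to vary like the other strains. Beyond the fits on fewer animals or genes, the cause was not tested.

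In the RefSeq table the strains share only number 1, so no replicate block could be fitted to them alone. A replicate block over all animals, chosen after seeing the data, called 96 genes (6 listed), 95 of them among the 170. In the v5 table, with both strains alone, a fit with the replicate block called 62 genes (3 listed) and one without it 504 (16 listed). Both were also chosen after seeing the data. Same-numbered animals there had correlations of 0.13, -0.08 and -0.21 of their deviations, so the numbers do not pair the animals.

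Of the 61 genes with alternatives that were past the threshold, 42 missed it with batch as a covariate, 23 with the replicate block over all animals, 19 within batches 10 and 11, and 19 to 43 when 1 animal was left out. Acsm3, Cbr1, Havcr2, Ifit1, LOC120097345, RT1-N2, Rtel1 and Setd4 passed in every fit that held them. The sign turned for RT1-A1 in the v6 table (-0.55) and for Kdr in the v5 table with animals 2 and 3 (-0.024).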

Other observations

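Other called genes with a symbol, chosen after their values were seen, fell outside the lists. Lrp2, the large endocytic receptor megalin of choroid plexus and ependyma, was at 8.25 in SHR/OlaIpcv and 7.50 in WKY/NCrl (difference 0.76, SE 0.18, limma adjusted p = 0.0102), while none of 8 choroid plexus markers passed 5% FDR. Dnah8, a dynein heavy chain of cilia and flagella, was at 6.71 against 5.80 (difference 0.91, limma adjusted p = 0.000254). Insr, the insulin receptor gene, was lower, at 10.68 against 11.04 (difference -0.36, SE 0.08, limma adjusted p = 0.00459). Fgf2, a growth factor of astrocytes, was at 5.95 against 6.50 (difference -0.56, limma adjusted p = 0.0219), and WKY/NCrl had the highest level of the 73 strains. Brca2 and Mre11, which both act in repair of DNA breaks, differed in opposite directions, by -0.80 (limma adjusted p = 0.00129) and by 0.25 (limma adjusted p = 0.0432). Each of these 6 missed the threshold without at least 1 animal.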
